A study of Mus musculus with 4 samples.

Results

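Potassium channel genes were taken from the deposited expression table as every row whose symbol begins with Kcn, followed by letters and a number. The rule found 93 of 21264 genes, and no measured value entered it. The 4 libraries form 1 group of mouse satellite cells, the muscle's resident stem cells. These cells were donor-derived: progenitors made from the pluripotent iPAX3 line, in which the transcription factor Pax3 directs cells to the muscle lineage, were transplanted and their satellite cells re-isolated. All of them carried NICD3 overexpression, that is, extra intracellular domain of the Notch3 receptor. The driver of NICD3, the host strain and age, the number of donor clones and any pooling of animals are not stated in the labels used here. Cells without NICD3 are not analysed here, so levels and their spread between libraries are described and no groups are compared. No label says whether replicates are separate animals, so each SD (n = 4 throughout) may hold technical spread only.

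Each library held 12544138 to 13302916 reads, and 1 read was worth 0.0752 to 0.0797 CPM (counts per 1e+06 reads counted). A gene without reads could still have a level of up to 3 counts, or 0.226 to 0.239 CPM, a one-sided 95% limit that covers counting error only. All 12 markers of satellite cells averaged at least 1 CPM, and Pax7, their defining transcription factor, had 118 to 142 CPM. That mean was reached by 60.6% of all genes, and no count of markers was tested against this share. Notch3 had 153 to 191 CPM, which does not separate the introduced domain from the cells' own gene. Markers of other cell types were also present, as 10 of 10 for mature myofibres, 8 of 8 for endothelium and 7 of 8 each for mural, glial, macrophage and fibro-adipogenic cells. Summed per library, these ran from 823 to 2255 CPM for myofibres, 53.2 to 160 for endothelium, 1091 to 2023 for mural cells, 377 to 569 for glia, 23.1 to 154 for macrophages and 4283 to 7094 for fibro-adipogenic cells. Single genes carried some sums: Col3a1 and Dpt, matrix genes, averaged 4599 and 1118 CPM of the fibro-adipogenic list, whose next gene, Dcn, averaged 20.1 CPM and whose defining receptor Pdgfra, named after its values were known, had 0.768 CPM and no reads in replicate 1. In the mural list Acta2 averaged 590 CPM; the list also holds Notch3, and shares Des with the satellite cell list. Among the 8 neuronal markers 3 averaged at least 1 CPM, and Snap25 and Nefl had no reads. In such bulk RNA, fewer cells of a type and less RNA per cell cannot be told apart.

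Potassium channels let potassium leave or enter a cell along its gradient, and so hold the membrane potential. In human myoblasts in culture, a hyperpolarisation carried by potassium channels precedes fusion into myotubes. Voltage-gated channels open on depolarisation, inward rectifiers pass potassium more easily into the cell than out, and two-pore channels carry a resting leak. The calcium-activated channels open when internal calcium rises, and are grouped here with their relatives that respond to sodium or pH. Auxiliary subunits form no pore but change where and how the pore-forming subunits act.

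All these pores share the selectivity filter, a short loop whose backbone lines up to strip water from potassium. A search of the longest reading frame of each gene for serine or threonine, any residue, glycine, then tyrosine, phenylalanine or leucine, then glycine matched 77 of 77 pore-forming members and 0 of 16 auxiliary ones. It also matched 5.47% of all 21074 protein-coding genes in the table. With threonine alone in the first place, the search matched 66 of the 77; serine was allowed after that result was seen. The two-pore members had 2 matches each, in 14 of 14 genes. So had 2 of 40 voltage-gated members, Kcnh2 and Kcna6, so 2 matches were not particular to two-pore genes. The coding strand around the filter is shown for 4 of the members the results turn on, in mm10 coordinates and from GENCODE M21 transcripts, 1 voltage-gated, 2 inward rectifiers and 1 calcium-activated. Capitals mark the 5 filter codons.
Kcna5, chr6:126533739-126533765, minus strand: atgaccACTGTAGGCTACGGGgacatg
Kcnj10, chr1:172369296-172369322, plus strand: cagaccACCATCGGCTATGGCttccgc
Kcnj8, chr6:142566442-142566468, minus strand: caagtgACCATTGGGTTTGGAgggaga
Kcnma1, chr14:23528407-23528433, minus strand: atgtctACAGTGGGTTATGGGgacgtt
The fourth capital codon reads tyrosine in Kcna5, Kcnj10 and Kcnma1, and phenylalanine in Kcnj8.

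Reads were found in all 4 libraries for 37 members (39.8%, against 60.1% of all genes in the table), in some libraries only for 33 (35.5%, against 17.3%), and in none for 23 (24.7%, against 22.6%). A mean of 1 CPM or more was reached by 38 members (40.9%, against 60.6% of all genes). The median of the mean levels was 0.506 CPM over the members and 4.83 CPM over all genes. The share of members with patchy reads was above that of the whole table and the share reaching 1 CPM below it; no test was made of either. Their reads were concentrated in few genes. The 3 highest members held 36.2% ± 9.28 of the summed CPM of all members, the 6 highest 55.5% ± 5.81 and the 10 highest 66.4% ± 2.46. The sum itself was 322, 376, 382 and 368 CPM in replicates 1 to 4, or 362 ± 27.2.

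**Figure D1:**
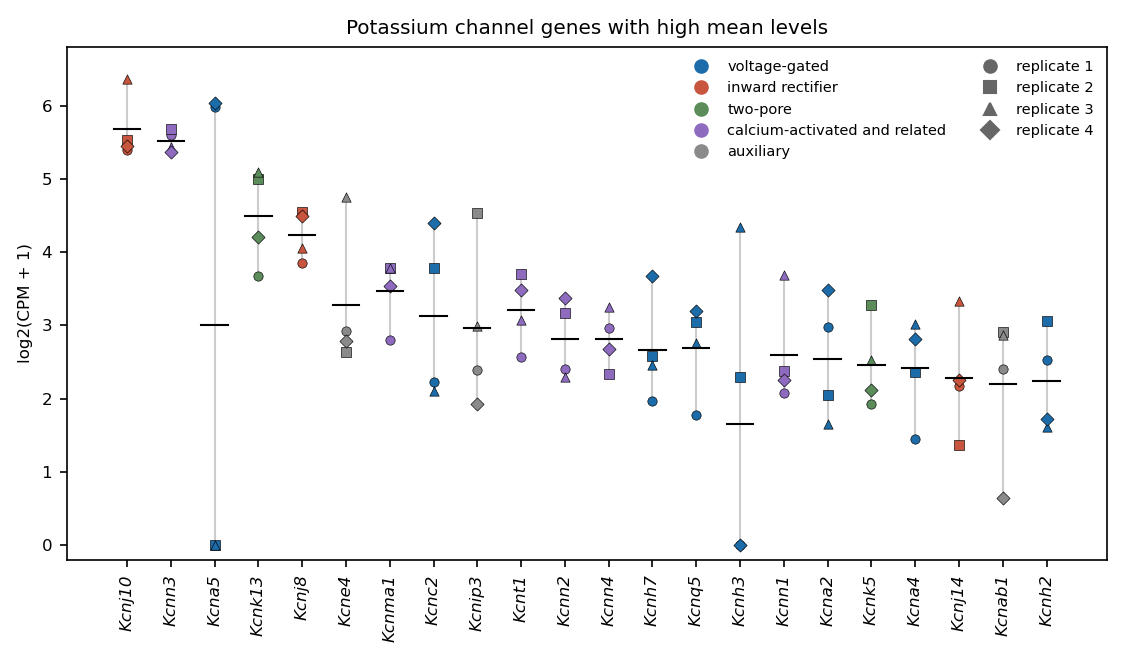
Levels of the potassium channel genes reported here from among those with the highest mean CPM, as log2(CPM + 1) on the y axis. Each symbol is 1 library, colours give the class and black bars the mean of the 4 libraries. Kcnj10 and Kcnn3 were high in all libraries, whereas Kcna5 was above 60 CPM in replicates 1 and 4 and had no reads in replicates 2 and 3.

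The calcium-activated class was the most evenly detected. Of its 8 members 7 had reads in all libraries, and the same 7 averaged at least 1 CPM. The median of the members' mean levels was 6.29 CPM, against 0.136 to 0.876 CPM in the other classes. Its summed level was 74.0, 93.4, 87.6 and 84.3 CPM, or 84.8 ± 8.16. The exception was Kcnu1, the pH-sensitive channel of sperm, with 11 reads in all, and it is named here after its values were known.

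Kcnn3 encodes a small-conductance channel that senses calcium through bound calmodulin. It had 47.4, 50.3, 42.4 and 40.3 CPM in replicates 1 to 4, or 45.1 ± 4.55. No library stood out. The SD of log2(CPM + 1) was 0.14, and 0.994% of the 4528 genes within a factor of 2 of its mean had a smaller one. Its CV between libraries was 10.1%, where counting alone would give 4.14%. Per kb of the longest protein-coding transcript, Kcnn3 stood at 15.6 CPM, against 1.74 for Kcnn2, 1.42 for Kcnn1 and 3.11 for Kcnn4. Kcnn2 had 4.30, 7.97, 3.90 and 9.41 CPM. Kcnn1 had 3.21, 4.21, 11.9 and 3.75 CPM, so that its mean of 5.76 fell to 3.72 CPM without replicate 3. Kcnn4, the intermediate-conductance channel known from blood and immune cells, had 6.8, 4.06, 8.5 and 5.42 CPM. The macrophage markers summed to 23.1, 154, 69.4 and 149 CPM, highest in replicate 2, where Kcnn4 was lowest. The part of macrophages in the Kcnn4 level was not tested. Calmodulin itself was abundant, with 944, 1248, 1196 and 2012 CPM for Calm2.

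Kcnma1, the pore of the large-conductance channel opened by calcium and depolarisation together, had 5.94, 12.7, 12.7 and 10.6 CPM, or 10.5 ± 3.19. Replicate 1 was the lowest. Among its beta subunits, which were named after their values were known, Kcnmb1, the form of smooth muscle, had 2.66, 0.526, 0.689 and 0.638 CPM. Kcnmb3 and Kcnmb4 averaged 0.869 and 0.621 CPM, and Kcnmb2 had no reads. The highest library for Kcnmb1 was the lowest for Kcnma1. The same library, replicate 1, had the highest sum of mural markers (2023 CPM, against 1091 to 1311 in the others), of which Acta2 supplied 1143 CPM there and 287 to 483 CPM elsewhere. Of the 8 mural markers 3 were highest in replicate 1, and the part of these cells in the Kcnmb1 value was not tested. Kcnt1, a sodium-activated channel, had 4.93, 12.03, 7.43 and 10.2 CPM.

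Of the 15 inward rectifiers 6 had reads in all libraries, 3 in some and 6 in none, and 3 averaged at least 1 CPM. The class summed to 60.1, 70.2, 109 and 71.1 CPM. Its level rested on a pair of genes. Kcnj10, the inward rectifier by which glia take up potassium, had 40.9, 45.3, 81.4 and 42.7 CPM, or 52.6 ± 19.3. Without correction for length it had the highest mean of all members, and replicate 3 lay well above the other libraries. The glial markers summed to 420, 377, 569 and 569 CPM, so replicates 3 and 4 were alike in that sum and differed in Kcnj10. Within that list Sox10, the transcription factor of the glial lineage, had 112, 111, 151 and 97.1 CPM and was also highest in replicate 3. The part of glial cells in the Kcnj10 level was not tested. Kcnj16, which joins Kcnj10 in mixed channels, had no reads.

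Kcnj8 encodes the pore of the ATP-sensitive potassium channel found in smooth muscle and pericytes. It had 13.4, 22.3, 15.6 and 21.6 CPM, or 18.2 ± 4.42. Abcc9, the sulfonylurea receptor that pairs with it there, had 14.7, 26.0, 29.5 and 35.6 CPM. Both were lowest in replicate 1. Of the 8 mural markers 3 were highest in replicate 1, 2 in replicate 2, 2 in replicate 3 and 1 in replicate 4. The last was Rgs5, a pericyte gene, with 229, 128, 71.7 and 255 CPM. The part of mural cells in the Kcnj8 and Abcc9 levels was not tested. The other pairing of this channel type was low: Kcnj11, the pore used in pancreatic beta cells and muscle fibres, had no reads in replicates 1 and 2 and 0.689 and 0.558 CPM in replicates 3 and 4. Abcc8, the receptor of beta cells and neurons, had 0.0782, 0, 1.84 and 1.36 CPM, higher in the same libraries. Kcnj11 is named here after its values were known.

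The remaining inward rectifiers were low. Kcnj14 had 3.52, 1.58, 9.03 and 3.75 CPM, and its mean of 4.47 fell to 2.95 CPM without replicate 3. Kcnj2, known from human myoblasts for the hyperpolarisation before fusion and chosen after seeing the values, had 0.235, 0.451, 0.383 and 0.957 CPM. These rest on 3, 6, 5 and 12 reads, and the exact 95% Poisson interval of the lowest library ran from 0.0484 to 0.685 CPM. Kcnh1, the voltage-gated partner of Kcnj2 in that step, had no reads in any library. Kcnj1, Kcnj3, Kcnj5, Kcnj6 and Kcnj15 had none either. Kcnj3, Kcnj5 and Kcnj6 form the channels that G proteins open in heart and neurons.

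**Figure D2:**
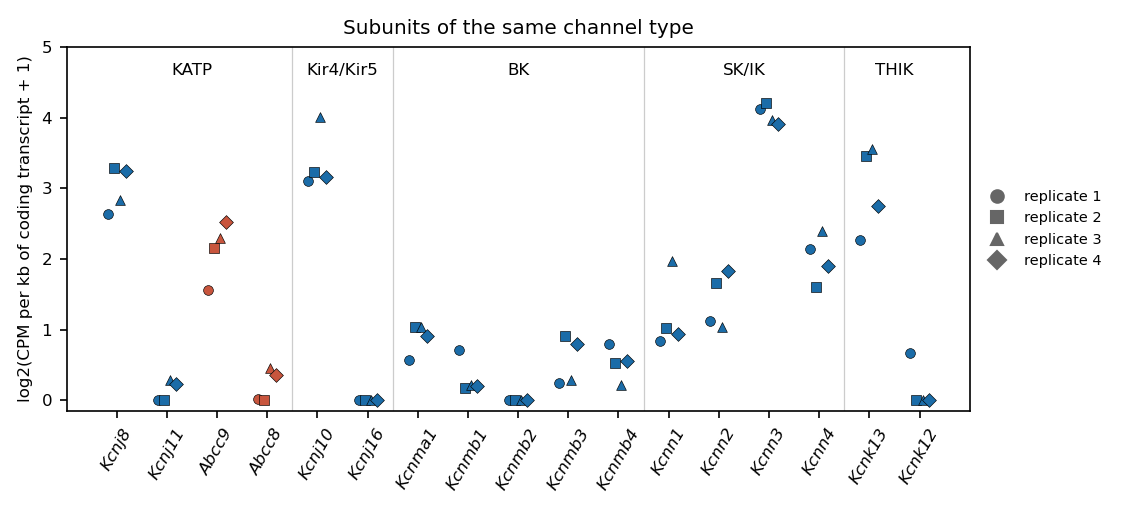
Subunits that work together or belong to 1 channel type, as log2(CPM per kb of the longest protein-coding transcript + 1) on the y axis. Each symbol is 1 library, blue for potassium channel genes and red for the sulfonylurea receptors. Kcnj8 and Abcc9 had reads in all 4 libraries, Kcnj11 in replicates 3 and 4 only, and Kcnj16 and Kcnmb2 in none.

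Of the 14 two-pore channels 4 had reads in all libraries, 4 in some and 6 in none, and 3 averaged at least 1 CPM. Kcnk13, a halothane-inhibited leak channel known from microglia, led the class with 11.7, 30.9, 33.1 and 17.5 CPM, or 23.3 ± 10.4. Replicates 2 and 3 were high and replicates 1 and 4 low. The macrophage markers summed to 23.1, 154, 69.4 and 149 CPM, lowest in replicate 1 as Kcnk13 was, but high in replicate 4. The myofibre markers summed to 823, 2255, 2047 and 1039 CPM, in which replicates 2 and 3 also exceeded replicates 1 and 4. The part of either cell type was not tested. Kcnk12, its closest relative and chosen after seeing the values, had 1.17 CPM in replicate 1 and no reads elsewhere.

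Kcnk5, an acid-sensitive leak channel, had 2.81, 8.72, 4.75 and 3.35 CPM. Kcnk1, a weakly rectifying one, had 1.95, 3.83, 3.83 and 2.23 CPM. Kcnk3, the acid-sensitive leak channel of the lung vasculature and heart, reached 1.91 CPM in replicate 4 and at most 0.459 CPM elsewhere, and its mean of 0.671 fell to 0.257 CPM without replicate 4. All summed, the class had 19.6, 44.1, 43.1 and 25.8 CPM, higher in replicates 2 and 3. That order follows Kcnk13. The mechanosensitive Kcnk2 had no reads, and neither had Kcnk9, Kcnk10, Kcnk15, Kcnk16 and Kcnk18.

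The voltage-gated class was the broadest, with 40 members. Of these 13 had reads in all libraries, 19 in some and 8 in none, and 18 averaged at least 1 CPM. It summed to 145, 123, 96.2 and 168 CPM. Kcna5 was 1 of 2 members that averaged 10 CPM or more.

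Kcna5 encodes a delayed rectifier known from heart and vascular smooth muscle. It had 62.2 CPM in replicate 1, no reads in replicates 2 and 3, and 64.9 CPM in replicate 4. The lower of the libraries with reads was thus at least 271-fold higher than the limit of 3 counts in a library without. Its SD of log2(CPM + 1), 3.47, ranked 1 among the 12879 genes averaging at least 1 CPM. The mean of 31.8 CPM fell to 20.7 CPM without replicate 4, and it describes no single library. Kcna5 has 1 exon (chromosome 6, 126532551 to 126535412, minus strand) and lies 105 kb from Kcna1, the next voltage-gated gene on the chromosome. Kcna1, the channel of myelinated axons, had 0, 1.13, 1.61 and 2.31 CPM, and Kcna6, 61.9 kb further on and named here after its values were known, had reads in replicate 4 alone. The neighbours did not share the pattern of Kcna5. Of the 8 sums over marker lists 0 had both libraries with Kcna5 reads above both without, but single markers did. These were 3 of 8 mural, 1 of 8 neuronal and 1 of 12 satellite cell markers. The mural Rgs5 had 229 and 255 CPM against 128 and 71.7 CPM. Tagln, also mural, had 0.625, 0.226, 0.153 and 0.239 CPM, at or under the worth of 3 counts in replicates 2 to 4. The neuronal Rbfox3 had 0.625, 0.301, 0 and 1.12 CPM. Tagln and Rbfox3 are named here after their values were known. Of the mural, glial and macrophage markers 1 each was lower in both libraries with reads. The summed pacemaker, store-operated and mechanosensitive channel genes were higher in both libraries with Kcna5 reads, with 235, 209, 209 and 346 CPM in replicates 1 to 4. Their highest gene, Stim2, had 57.1, 60.1, 64.8 and 171 CPM, lowest in replicate 1. Intracellular potassium channels (91.1, 189, 132 and 97.5 CPM) and chloride channels and cotransporters (917, 1024, 1032 and 728 CPM) were lower in both. The sums of the remaining partner and transport lists overlapped between the libraries with and without Kcna5 reads. The sums for satellite cells, mature myofibres and fibro-adipogenic cells were lower in both libraries with reads. So were 3 of 12, 9 of 10 and 2 of 8 of their members. The share of all genes in either order was not counted, so these marker counts have no background to be read against. The part of these cell types in the Kcna5 values was not tested.

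Kcnq5, a slow channel active near the resting potential, had 2.42, 7.29, 5.74 and 8.13 CPM. Kcnc2, a fast channel of rapidly firing neurons, had 3.67, 12.7, 3.29 and 20.01 CPM, and its mean of 9.92 fell to 6.56 CPM without replicate 4. It was higher in replicates 2 and 4 than in replicates 1 and 3. The neuronal markers summed to 32.6, 50.1, 42.9 and 79.3 CPM, and they were also higher in replicates 2 and 4, with Snap25 and Nefl at 0 in all. Map2, a gene of the cytoskeleton, supplied most of that sum with 27.4, 45.7, 40.2 and 73.9 CPM, and the other 7 markers summed to 5.16, 4.44, 2.76 and 5.42 CPM, without the order of Kcnc2. The part of neuronal RNA in the Kcnc2 values was not tested. Exons of Kcnmb4 overlap 1 of its antisense genes over 20.8% of their bases and those of Kcna6 another gene over 39.6%. Kcnj13, with 16 reads in all and counted among the inward rectifiers with reads in every library, shares 49.1% of its exon bases with Gigyf2 on the opposite strand, which had 79.9 CPM. Kcnj13 and Gigyf2 are named here after their values were known. The strand setting of the counting is not given, so these levels are uncertain.

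Among the ether-a-go-go related genes, Kcnh7 had 2.89, 4.96, 4.52 and 11.7 CPM and Kcnh2, the channel that ends the heart's action potential, had 4.77, 7.37, 2.07 and 2.31 CPM. Kcna2, the partner of Kcna1 in axons, had 6.88, 3.16, 2.14 and 10.2 CPM, higher in replicates 1 and 4 as Kcna5 was, but with reads in every library. Kcna4, an inactivating channel, had 1.72, 4.13, 7.12 and 6.06 CPM. Some members of the class form no channel alone and modify other subunits. Of these silent subunits Kcnf1 had 4.85, 5.26, 0.459 and 2.15 CPM, Kcns3 had 1.49, 2.86, 2.22 and 0 CPM, and Kcns1 had 1.25, 1.05, 0 and 1.51 CPM. Kcnb2, Kcnd2, Kcnd3, Kcng4, Kcnh5 and Kcna10 had no reads. Kcnd2 and Kcnd3 carry the fast transient current of heart and neurons.

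The auxiliary subunits numbered 16, of which 7 had reads in all libraries, 6 in some and 3 in none. They summed to 23.2, 46.1, 46.3 and 18.2 CPM. Kcne4, a single-span protein that damps Kcnq1 and some Kcna channels, had 6.57, 5.19, 25.9 and 5.90 CPM, and its mean of 10.9 fell to 5.88 CPM without replicate 3. Kcnip3, a calcium-binding partner of the Kcnd channels that also acts as a transcriptional repressor, had 4.22, 22.2, 6.97 and 2.79 CPM, and its mean of 9.04 fell to 4.66 CPM without replicate 2. For each of these genes 1 library carried most of the reads. Kcnab1, a beta subunit of Kcna channels, had 4.30, 6.54 and 6.28 CPM in replicates 1 to 3 and 0.558 CPM in replicate 4. Kcnip1 reached 2.07 CPM in replicate 4 and its mean of 0.884 fell to 0.487 CPM without it, while Kcnab3 had 1.49, 0, 1.61 and 1.12 CPM.

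Levels of different genes can be set side by side only per length. Per kb of summed exons, the order among the genes reported here began with Kcna5 at 11.1 CPM per kb (0 to 22.7 over libraries), Kcnj10 at 9.72 (7.56 to 15.05), Kcnk13 at 7.496 (3.77 to 10.7), Kcnj8 at 7.15 (5.25 to 8.76), Kcnn3 at 4.32 (3.86 to 4.81) and Kcne4 at 4.10 (1.95 to 9.74). Each of these ranges overlapped that of the next gene, with the exception of Kcnj8 and Kcnn3. Kcnn3 depended on the length used. Its 10451 exon bases include a retained-intron transcript of 8314 bases, and with its longest protein-coding transcript of 2884 bases it reached 15.6 CPM per kb (13.99 to 17.4) and ranked 1. On that length the range of Kcnn3 overlapped that of Kcnj10 and lay between the libraries with Kcna5 reads and those without.

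As shares of the summed CPM per kb of exon, voltage-gated genes made up 51.7%, 30.2%, 23.1% and 48.5% in replicates 1 to 4, or 38.4% ± 13.9. Kcna5 alone made up 28.6% in replicate 1 and 27.3% in replicate 4. The rest of the class held 23.1%, 30.2%, 23.1% and 21.2%, so that the high share of the class in replicates 1 and 4 was that of 1 gene. Inward rectifiers held 23.7% ± 4.58, two-pore channels 13.6% ± 4.53, auxiliary subunits 12.6% ± 5.45 and calcium-activated channels 11.7% ± 0.764. The last share was the steadiest between libraries, but it became 24.3% with the longest protein-coding transcript as the length.

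**Figure D3:**
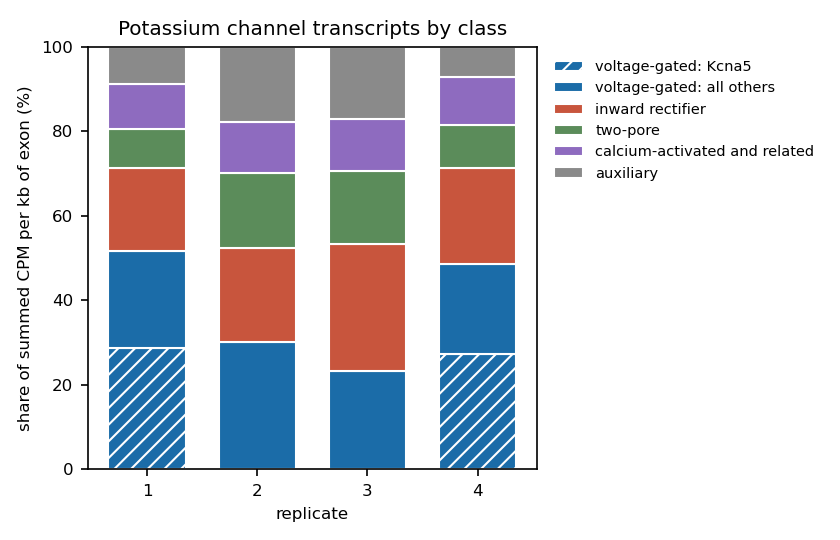
Share of each class in the summed CPM per kb of exon of all 93 members, in percent on the y axis, for each of the 4 replicates on the x axis. The hatched part is Kcna5, at 28.6% and 27.3% in replicates 1 and 4 and absent in replicates 2 and 3.

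Channels with reads in some libraries only were mostly low. Of the 33 such members 13 had reads in 1 library, 11 in 2 and 9 in 3. In 19 of them the highest library was under 1 CPM, in 8 it was under the worth of 3 counts, and 6 rested on a single read. For the 8, a difference between libraries was not detectable at this depth. At the other end, 4 members reached 5 CPM in a library and had no read in another. This is 13.8% of the 29 members that reached 5 CPM, against 2.66% of all genes that did. These shares were not matched for level and were not tested. Of the 38 members averaging at least 1 CPM, 8 averaged at least 10 CPM, against 9202 of 12879 genes.

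The 4 members with 5 CPM in a library and no read in another were Kcna5, Kcnh3, Kcnv2 and Kcne3. Kcnh3, a channel of forebrain neurons, had 3.91 CPM in replicate 2, 19.3 CPM in replicate 3 and no reads in replicates 1 and 4, the reverse of the libraries with Kcna5. Its mean of 5.80 fell to 1.30 CPM without replicate 3. Kcnv2, a silent subunit known from photoreceptors, had 9.87 CPM in replicate 3, from 129 reads, and none elsewhere, so its mean of 2.47 CPM fell to 0 without that library. Kcne3, an auxiliary subunit that holds Kcnq1 open in epithelia, had 5.79 CPM in replicate 2, 1.28 CPM in replicate 4 and no reads in replicates 1 and 3, and its mean of 1.77 fell to 0.425 CPM without replicate 2. The 4 genes thus had their reads in 4 different sets of libraries.

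**Figure D4:**
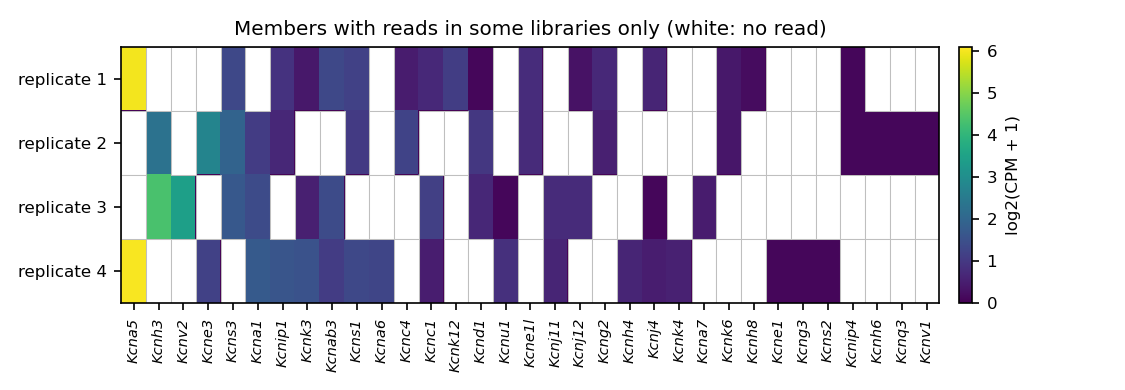
The 33 members with reads in some libraries only, in columns ordered by their highest library, with the 4 replicates as rows. Colour gives log2(CPM + 1) and white marks no reads. Kcna5 in replicates 1 and 4 and Kcnh3 and Kcnv2 in replicate 3 stand out, and 19 of the 33 stay under 1 CPM in every library.

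An SD of log2(CPM + 1) of at least 1 was found in 7 of the 38 members averaging at least 1 CPM (18.4%), against 5.94% of all genes at that level. They were Kcna5, Kcnh3, Kcnv2, Kcne3, Kcnc2, Kcnip3 and Kcnab1. Low genes spread more, and most members were low: between 1 and 10 CPM the share was 6 of 30 members (20%) against 15.6% of all genes. The median SD was 0.68 over the 38 members and 0.63 over all genes. Among those of at least 10 CPM it was 0.46 over 8 members and 0.62 over all genes. Of these 8, Kcna5 had 3.47 and Kcne4 0.99, and the other genes ran from 0.14 to 0.68.

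**Figure D5:**
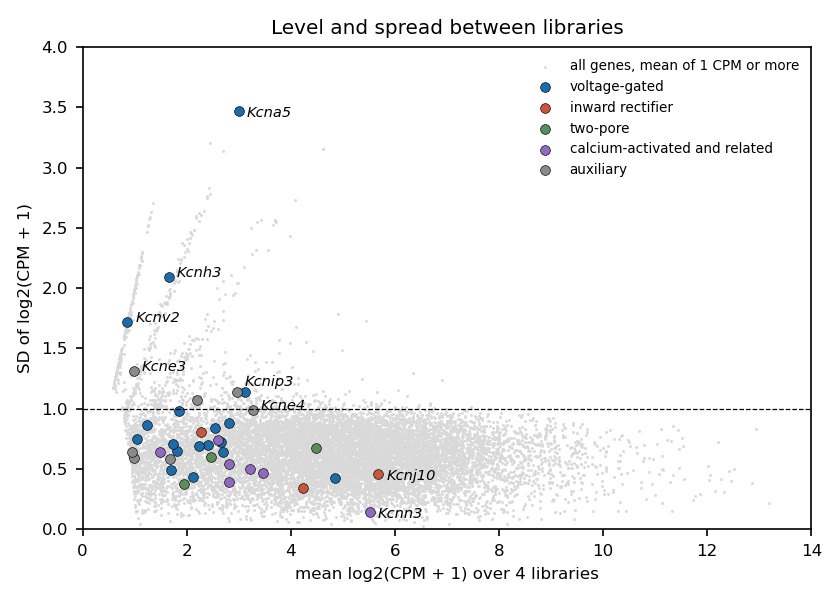
Mean of log2(CPM + 1) over 4 libraries on the x axis against its SD on the y axis. Grey points are all genes averaging at least 1 CPM, coloured points the 38 members at that level, and the dashed line an SD of 1. Kcna5 lies highest with an SD of 3.47 and Kcnn3 lowest among the members with 0.14.

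The libraries did not contribute evenly. Of the 38 members averaging at least 1 CPM, the highest library was replicate 1 for 4, replicate 2 for 14, replicate 3 for 12 and replicate 4 for 8. These are 10.5%, 36.8%, 31.6% and 21.1% of the members, against 26.0%, 21.2%, 24.2% and 28.6% of all genes at that level. Replicate 1 was the single lowest for 38.2% of the members with 1 lowest library, against 27.7% of such genes. In replicate 1 the myofibre markers and the macrophage markers also had their lowest sums, 823 and 23.1 CPM, and the share of mitochondrial reads was 0.533%, against 0.822% to 1.82% in the others. The part of these in the pattern was not tested.

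The other ion transport genes describe the setting in which the channels stood. A mean of at least 1 CPM was reached by 60.6% of all genes. The counts below were not tested against that share, so they do not set these lists apart from other genes. Of 9 subunits of the sodium-potassium ATPase, which builds the potassium gradient, 8 averaged at least 1 CPM, among them Atp1b3 with 243 ± 102 CPM. Of 15 sodium channel genes 8 did, among them Scn7a with 16.3 ± 6.49 CPM. Among 18 genes of voltage-gated calcium channels 13 did, led by Cacna2d1 with 75.5 ± 40.6 CPM. Among 14 chloride channels and cotransporters 12 did, led by Clcn4 with 401 ± 143 CPM. The intracellular potassium channels Tmem38b and Tmem38a, which balance charge when calcium leaves the sarcoplasmic reticulum, had 52.4 ± 28.8 and 38.4 ± 18.2 CPM, and the lysosomal Tmem175 had 36.7 ± 8.34 CPM. Of 11 pacemaker, store-operated and mechanosensitive channel genes 8 averaged at least 1 CPM, led by Stim2, a calcium sensor of the store, with 88.2 ± 55.2 CPM.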

How the data were processed

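RNA from 4 libraries of 1 group was captured on beads, amplified as cDNA with a low-input kit and tagmented, per the labels' protocols. The deposited values are log2 CPM with a constant offset. Tools listed in the submitters' processing notes are featureCounts, edgeR, FastQC and Trimmomatic 0.33, with the build mm10. The aligner, annotation release, strand setting and handling of multiply aligned reads are not stated there, so overlapping and near-identical genes are uncertain.

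The offset of 0.0548 CPM was removed from each value, and 100% of the results were whole reads within 1e-06 reads. The plan had assumed linear CPM and was kept. Spread was taken on log2(CPM + 1), which understates differences of low genes. Lengths came from GENCODE M21, as summed exons, and all 93 members matched. Intervals are exact 95% Poisson intervals. Reads amplified from few cells are not independent molecules, so intervals and limits cover counting error only. No test compared groups, since there is 1 group. A critical value was used only in the search for outlying libraries, given below. The recovery of reads was tested on simulated data.

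Members, classes and gene lists were chosen with earlier results of these data known. The genes named are the 25 members with the highest mean CPM, the 3 highest of each class, the 10 highest of those with reads in some libraries only, the 10 with the largest SD, and the 3 highest of each list of partners and markers, besides Pax7, Notch3, Abcc8 and Abcc9. A few genes and sequences that this rule would take are left out of the text and the plots of single genes. Alternatives covered libraries left out, thresholds, pseudocount, scaling and length. Python 3.11.15, pandas 2.3.3, NumPy 2.4.6, SciPy 1.17.1 and matplotlib 3.10.9 were used.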

Additional observations from a re-analysis of the deposited data

Results flagged for a closer look

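Each of the named members was searched for a library whose gap to the nearest other exceeded Dixon's 95% critical share of the whole range over the 4 libraries. Chance flags about 1 in 20 groups that were not chosen by their values. Some members were named for a large SD or for reads in some libraries only, so that rate does not hold here. In all 57 items were searched, 35 of them members, and the 4 that stood out were members. In each of the 4 the outlying library was replicate 3. Kcnj10 had 81.4 CPM there and 45.3 CPM in the next library. Kcne4 had 25.9 CPM against 6.57 CPM. Kcnn1 had 11.9 CPM against 4.21 CPM. Kcnv2 had 9.87 CPM against no reads in the other libraries, a pattern that is flagged at any level.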

How the results depend on the processing

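No paired analysis was possible because the 4 libraries form 1 group. Leaving out 1 library gave 38 to 41 members with reads in all libraries, 25 to 30 in some, 25 to 29 in none, 37 to 39 with a mean of 1 CPM or more and 6 to 10 with an SD of at least 1. Of the 35 named members 11 moved in mean by over 1.5 times when 1 library was left out, and 0 did so with median-of-ratios scaling. A minimum of 5 CPM left 19 members in place of 38. The count with an SD of at least 1 (7) became 1 with a minimum mean of 10 CPM, 14 with a pseudocount of 0.1 CPM and 2 with one of 5 CPM. Class shares depended on the length: without a length the two-pore share was 9.03% and the calcium-activated share 23.4%. The latter was 14.4% with the longest transcript and 24.3% with the longest protein-coding one, which gave 19.0% for inward rectifiers and was chosen after seeing the data. The calcium-activated share was 13.9% without Kcna5 and 13.5% over pore-forming members. Genes under 3 counts cannot be distinguished from absent ones at this depth.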
